A study of Mus musculus with 6 samples.

Results

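The enzymes that remove superoxide and peroxides, make and recycle glutathione, and attach glutathione to reactive compounds were followed in RNA from cultured mouse islets. All genes of the deposited table were taken whose symbol begins with Gpx, Prdx or Sod and a digit, or with Gst, a class letter (a, k, m, o, p, t or z) and a digit, together with Cat, Hmox1, Nqo1, Gclc, Gclm, Gsr, Gss and Srxn1. This gave 44 genes of 16547, and the rule uses symbols only. One of them, Gpx2-ps1, is a pseudogene. The knockout group (βKcnj11 -/-, called bKO, 3 libraries) lacked Kcnj11 in beta cells, and the control group (Kcnj11 fl/fl, called WT, 3 libraries) carried the floxed gene. All mice were C57BL/6 and 11 to 12 weeks old, and islets of both groups were picked by hand and kept in RPMI medium for 2 days before RNA extraction. No source used here names the driver of the deletion or states that each library is a different mouse, so p-values measure the spread between these libraries, which may in part be technical.

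Superoxide dismutases turn superoxide into hydrogen peroxide. Catalase then breaks down hydrogen peroxide. Glutathione peroxidases and peroxiredoxins reduce hydrogen peroxide and lipid peroxides, the former mostly with glutathione and most of the latter with thioredoxin as the donor. Glutathione is made by glutamate-cysteine ligase and glutathione synthetase and is returned to its reduced form by glutathione reductase with NADPH, and many of these genes are targets of the transcription factor Nrf2. Rodent beta cells are known for low catalase and glutathione peroxidase activity beside liver.

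Values are FPKM, fragment counts scaled to transcript length and library size, which allows levels of different genes to be compared per length. The steps between low FPKM values put the depth at about 26700000 to 40700000 fragments in bKO libraries and 23300000 to 27600000 in WT libraries. Kcnj11 was at 3.45, 5.31 and 3.51 FPKM in bKO replicates 1, 2 and 3, against 19.7, 24.7 and 25.4 FPKM in WT replicates 1, 2 and 3. Islet hormone genes were present in every library, with Ins2 between 165691 and 229465 FPKM in bKO and between 196026 and 274163 FPKM in WT. The Ins2 groups overlapped, as did those of Mafa, Nkx6-1, Pdx1, Slc2a2 and Slc30a8. As FPKM, Ins1, Iapp, G6pc2 and Ucn3 were lower in bKO without overlap, with means changed by -36.2%, -31.4%, -34.2% and -42.2%. Without quantile normalization, 21.8% of all genes did not overlap in either direction. Quantile normalization gave Ins2, Iapp and Ins1 the same values in both groups. The method thus fixed in advance that these genes could not stay apart or be called, and says nothing about their FPKM differences. Of the other beta cell markers, only G6pc2 and Ucn3 stayed apart after normalization, and limma called 0 of the 10. The libraries also held other cells in unequal amounts. The summed level of 17 acinar markers was 27531, 12159 and 27168 FPKM in bKO replicates 1, 2 and 3 and 1412, 17517 and 20754 FPKM in WT replicates 1, 2 and 3. The sum of 10 stellate cell and fibroblast markers was 489, 256 and 479 FPKM in bKO and 385, 155 and 152 FPKM in WT. Endothelial markers separated the groups most cleanly: their sum over 10 genes was 211, 220 and 209 FPKM in bKO and 147, 154 and 163 FPKM in WT. All 10 were higher in bKO without overlap, where 7.1% of all genes were, with a median log2 difference of 0.38. Limma called 0 of them, and 9 had an unadjusted p below 0.05, where 5.05% of all genes were higher at that limit. Of the acinar markers, 1 (Ctrc) was at 0 in a library, and no stellate or endothelial marker was at 0. Across genes, bKO replicates 1 and 3 were the closest pair (Pearson r = 0.9986, against 0.9816 to 0.9956 for the other pairs), and over the 44 enzymes their median absolute difference was 0.05 on the log2 scale, against 0.11 to 0.29 for the other pairs. In islet RNA, fewer cells of a type and less RNA per cell cannot be told apart.

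Stretches of 4 promoters are shown, because they carry a full antioxidant response element core, the sequence that Nrf2 binds together with small Maf proteins, in genes whose library values are compared further on. Sequences are from RefSeq (build GRCm38.p6), given 5′ to 3′ on the strand of the gene, and capitals mark TGAGTCAGC or, on the opposite strand, TGACTCAGC.
Gstp1: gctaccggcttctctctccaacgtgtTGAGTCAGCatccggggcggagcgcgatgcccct
Gstp2: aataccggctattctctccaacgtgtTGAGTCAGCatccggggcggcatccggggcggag
Srxn1: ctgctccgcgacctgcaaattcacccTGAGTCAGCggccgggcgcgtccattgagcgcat
Prdx1: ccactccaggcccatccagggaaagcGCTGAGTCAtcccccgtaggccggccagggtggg
These lie at chr19:4037953-4038012 (minus strand), chr19:4042277-4042336 (minus strand), chr2:152105453-152105512 (plus strand) and chr4:116685440-116685499 (plus strand). Promoter windows of 300 bases were found for 36 of the 44 genes, 47 windows in all. The looser cores TGACNNNGC or TGAGNNNGC, searched on both strands, were in 25.5% of these windows and in 27.8% of all 32851 windows. The full letters TGAGTCAGC or TGACTCAGC, which are cases of the looser cores, were in 4 of the 47 windows and in 0.822% of all windows. They were chosen after the windows had been read. A match is a description of these letters and not a site.

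The enzymes spanned more than 3 orders of magnitude, from 0.248 FPKM for Gpx2-ps1 to 424 FPKM for Gstp1 as means over the 6 libraries. Gstp1, Sod1 and Prdx1 were the 3 highest, and Gpx4, Gpx3, Prdx2 and Prdx5 came next. Cat stood at rank 28 of 44, with a mean of 21.1 FPKM, and Gpx1 at rank 10, with 112 FPKM. All 44 genes were above 0 in every library and passed the filter, so all were tested. Together they made up 0.494%, 0.479% and 0.496% of all FPKM in bKO replicates 1, 2 and 3, against 0.419%, 0.388% and 0.446% in WT replicates 1, 2 and 3. Insulin transcripts took 27.3%, 33.5% and 26.4% of FPKM in bKO and 36.1%, 37.4% and 29.8% in WT. Without Ins1 and Ins2, the share of the enzymes was 0.680%, 0.721% and 0.674% in bKO and 0.655%, 0.619% and 0.635% in WT. The groups did not overlap here, but this total still held Iapp. Iapp was at 30667, 40669 and 30789 FPKM in bKO replicates 1, 2 and 3 and 50894, 50760 and 47317 FPKM in WT replicates 1, 2 and 3. With Iapp taken out as well, the share of WT replicate 1 lies above those of bKO replicates 1 and 3. The groups then overlap, so the separation holds only for the totals printed here.

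**Figure D1:**
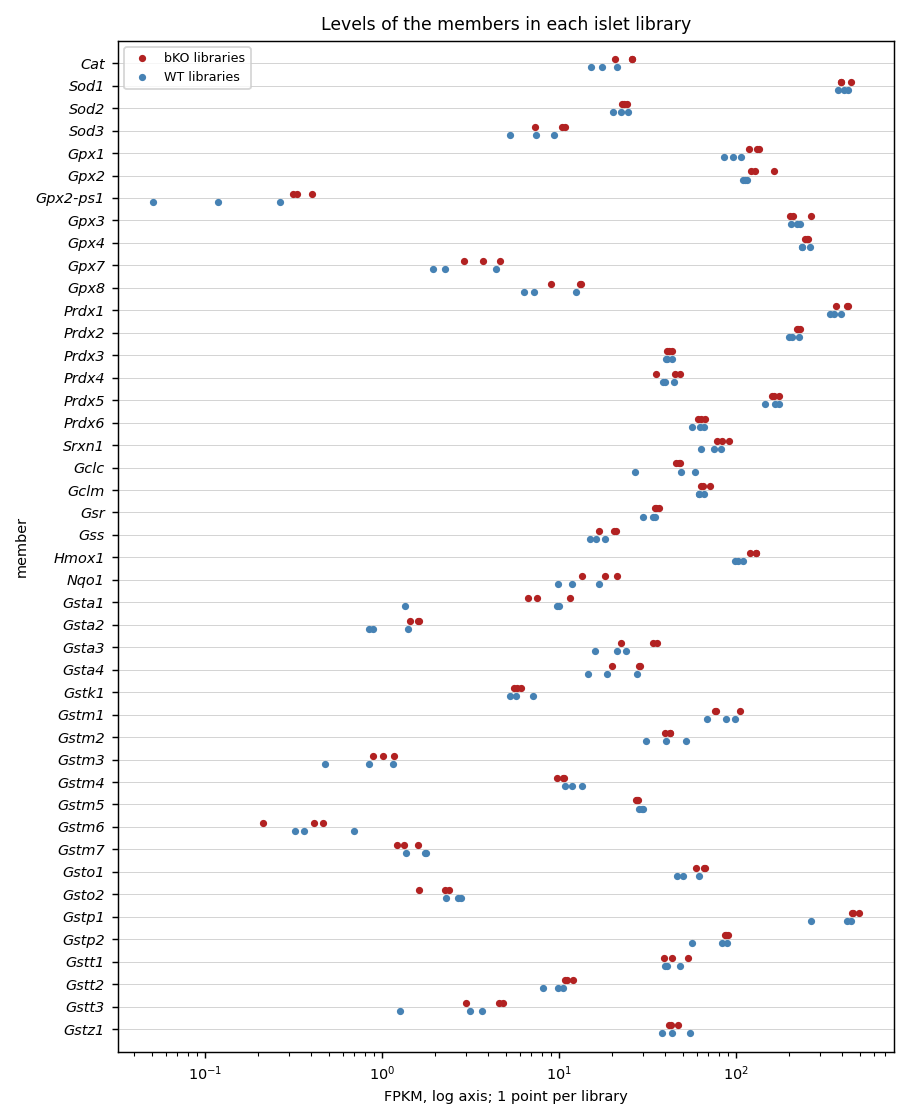
FPKM (log axis) of each of the 44 enzymes, ordered by role, with 1 point per library, bKO above and WT below on each line. Gstp1, Sod1 and Prdx1 lie at the right end and Gpx2-ps1 at the left, and the points of the groups are interleaved for most genes.

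The design asks which of these transcripts differ when beta cells lack Kcnj11, the pore of their ATP-sensitive potassium channel. None of the 44 enzymes passed the threshold. Limma with Benjamini-Hochberg adjustment over all 15962 genes tested called 0 of 44, where 0.194% of all genes were called (0.0626% higher and 0.132% lower). An unadjusted p below 0.05 was found for 10 of 44, 6 of them higher and 4 lower, where 5.05% of all genes were higher and 9.17% lower at that limit. The bKO and WT libraries did not overlap for 8 of the 44 (18.2%), against 19.7% of all genes, which is near the background. On the normalized scale used for the test, bKO was the higher group in 5 of the 8 (Gpx1, Gpx2, Gpx2-ps1, Hmox1 and Gstp1), where 7.1% of all genes did not overlap and were higher. It was the lower group in 3 (Gstm4, Gstm5 and Gsto2), where 12.6% of all genes were. The sign leaned upwards. The log2 difference (bKO minus WT, on quantile normalized log2(FPKM + 1)) was positive for 34 of 44, with a median of 0.11, while it was positive for 47% of all genes, with a median of -0.0084. Without quantile normalization 37 of 44 were positive, beside 65.2% of all genes, and with median of ratios scaling 28 of 44, beside 53.6%. The differences lay between -0.32 for Gsto2 and 0.50 for Gsta3, while Kcnj11 fell by 2.35 on the log2 scale (limma adjusted p = 0.0250).

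**Figure D2:**
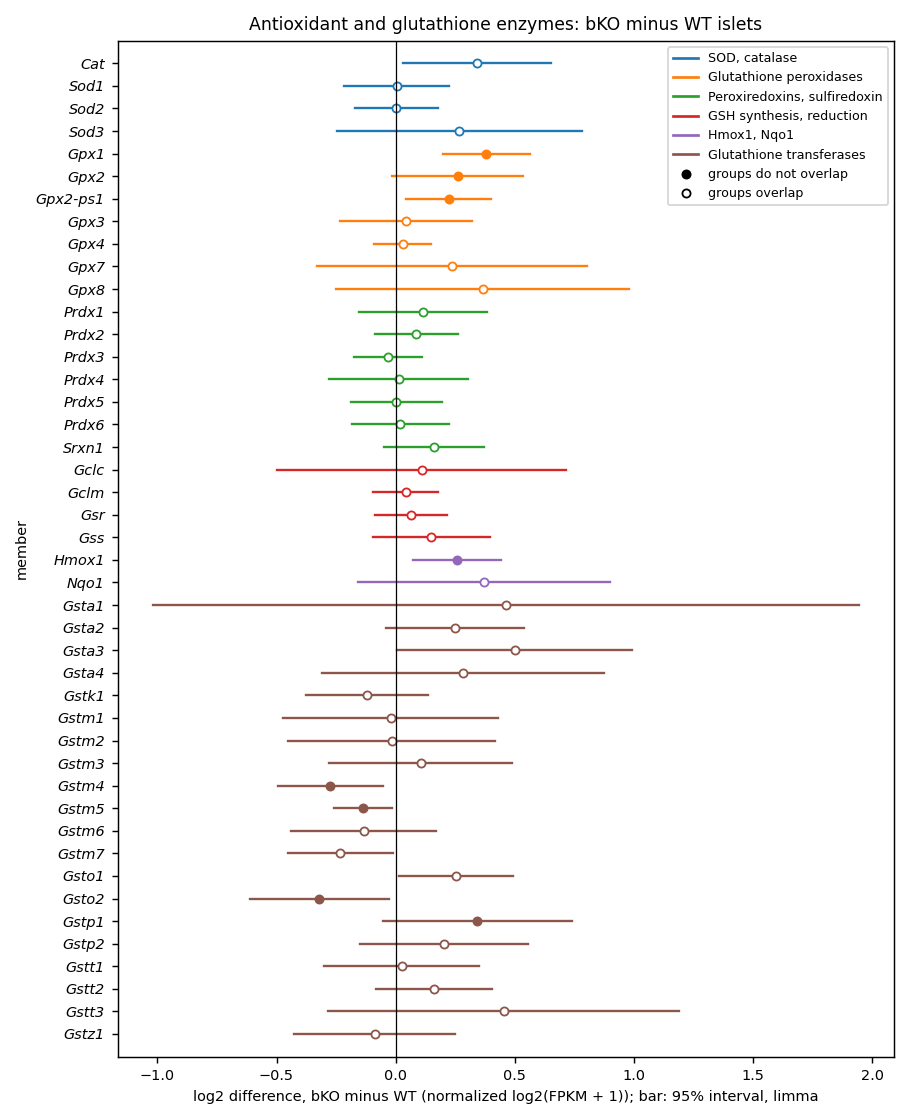
Log2 difference of bKO minus WT for each enzyme, with the 95% interval from limma, coloured by role. Filled points mark the 8 genes whose groups do not overlap, and the points of all 7 glutathione peroxidase genes lie to the right of 0 while 6 of 7 mu class transferases lie to the left.

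Of the first-line enzymes, catalase differed most and the dismutases of cytosol and mitochondria least. Cat, the peroxisomal catalase, was at 26.0, 20.9 and 25.8 FPKM in bKO replicates 1, 2 and 3, against 15.3, 17.6 and 21.2 FPKM in WT replicates 1, 2 and 3. Its groups overlapped by a single library on each side, bKO replicate 2 lying just under WT replicate 3 (log2 difference 0.34, SE 0.13, limma adjusted p = 0.311). Sod1, the copper and zinc dismutase of the cytosol, was at 392, 444 and 391 FPKM in bKO and 379, 432 and 407 FPKM in WT. Sod2, the manganese dismutase of mitochondria, was at 23.3, 24.3 and 22.7 FPKM in bKO and 22.4, 20.3 and 24.6 FPKM in WT. Both sets of values were interleaved, and the 95% intervals of the log2 differences were -0.22 to 0.22 for Sod1 and -0.17 to 0.18 for Sod2. Sod3, the dismutase of the extracellular space, averaged 9.54 ± 1.97 FPKM in bKO and 7.36 ± 2.06 FPKM in WT (SD, n = 3 each).

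The glutathione peroxidases held the gene with the smallest p. Gpx1, the selenium enzyme of cytosol and mitochondria, was at 131, 118 and 136 FPKM in bKO replicates 1, 2 and 3, against 85.6, 97.0 and 107 FPKM in WT replicates 1, 2 and 3. Every bKO library lay above every WT library, with means of 128 ± 8.98 and 96.5 ± 10.7 FPKM (SD, n = 3 each), 1.33-fold. The log2 difference was 0.38 (SE 0.08, 95% interval 0.20 to 0.56), with an unadjusted p of 0.00194 and a limma adjusted p of 0.111. The endothelial markers, with a median difference of 0.38, were also higher in every bKO library, and their part in the values of Gpx1 and of the other enzymes that were higher without overlap was not tested. Gpx2, the peroxidase first known from the gut lining, was at 128, 165 and 121 FPKM in bKO and 109.5, 113 and 116 FPKM in WT. All bKO values were above all WT values, but the spread came from bKO replicate 2, and without that library the log2 difference was 0.12, against 0.26 with all 6 libraries (limma adjusted p = 0.374). Gpx2-ps1, the pseudogene, averaged 0.351 ± 0.0473 FPKM in bKO and 0.145 ± 0.11 FPKM in WT, which is about 3 to 5 fragments in each bKO library and 0 to 2 in each WT library. Of its 50-base stretches 36.8% also occur in Gpx2, so reads of this pair may have been split between them.

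Gpx4, which reduces lipid peroxides in membranes and guards against ferroptosis, was the steadiest of the abundant enzymes. It was at 255, 247 and 253 FPKM in bKO and 238, 235 and 262 FPKM in WT, with a 95% interval of the log2 difference of -0.09 to 0.15. Gpx3, the secreted peroxidase of plasma, was at 211, 266 and 204 FPKM in bKO and 229.7, 205 and 221 FPKM in WT, so that bKO held both the highest and the lowest library. Gpx7 and Gpx8, peroxidases of the endoplasmic reticulum, averaged 3.78 ± 0.881 and 11.9 ± 2.46 FPKM in bKO, against 2.88 ± 1.33 and 8.68 ± 3.34 FPKM in WT (SD, n = 3 each). For both, WT replicate 1 stood with bKO replicates 1 and 3 as the 3 highest libraries.

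**Figure D3:**
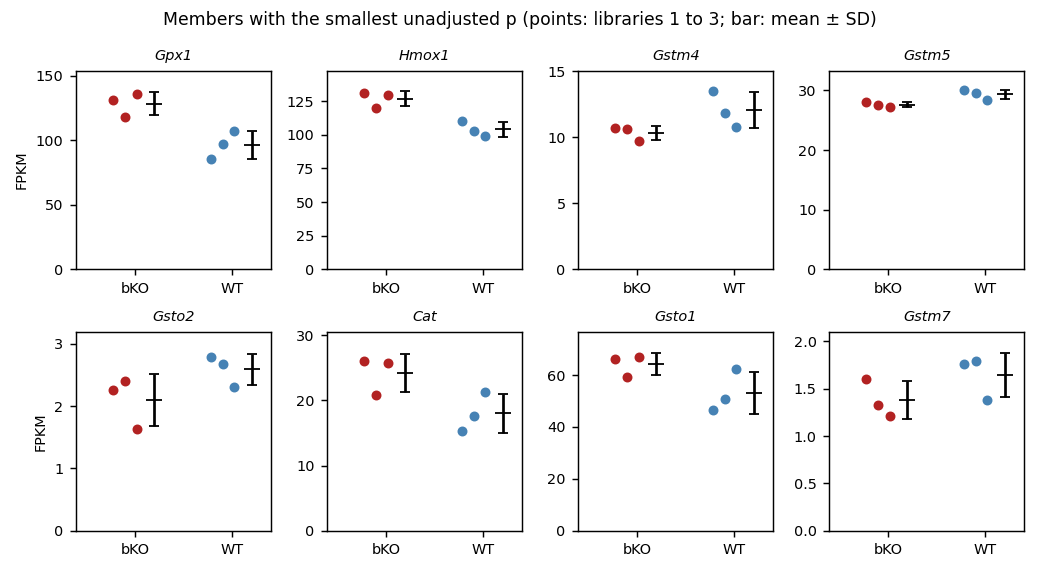
FPKM of the 8 enzymes with the smallest unadjusted p and a mean of at least 1 FPKM, with 1 point per library and the mean ± SD beside it (n = 3 each), bKO left and WT right. Gpx1 and Hmox1 show bKO above WT without overlap, Gstm4 and Gstm5 the reverse, and Gsto2, Cat, Gsto1 and Gstm7 overlap as FPKM.

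The peroxiredoxins differed least of the enzyme families. Prdx1, the most abundant form in the cytosol, was at 429, 367 and 423 FPKM in bKO, against 394, 340.2 and 357 FPKM in WT. Prdx2, its close relative, was at 225, 229 and 221 FPKM in bKO, against 227, 200.3 and 208 FPKM in WT. For both, as FPKM, WT replicate 1 lay within the bKO range while WT replicates 2 and 3 lay below every bKO library. Prdx3, the mitochondrial form, was at 40.9, 43.4 and 41.7 FPKM in bKO and 43.6, 40.1 and 40.9 FPKM in WT. Prdx4, the form of the endoplasmic reticulum, was at 45.1, 35.4 and 48.6 FPKM in bKO and 40.0, 38.9 and 45.0 FPKM in WT. The bKO values of Prdx4 lay on both sides of the whole WT range. Prdx5, found in mitochondria, peroxisomes and cytosol, was at 174, 159.7 and 165 FPKM in bKO and 167, 146 and 176 FPKM in WT. Prdx6, which also has phospholipase activity, was at 66.6, 60.9 and 63.6 FPKM in bKO and 66.1, 56.4 and 62.9 FPKM in WT. The groups overlapped for each of these, and the log2 differences of the 6 peroxiredoxins lay between -0.03 and 0.12. Srxn1, the sulfiredoxin that repairs overoxidized peroxiredoxins, was at 83.5, 91.1 and 78.2 FPKM in bKO and 63.6, 75.3 and 82.4 FPKM in WT (log2 difference 0.16, limma adjusted p = 0.455).

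Genes that make and recycle glutathione had log2 differences between 0.04 and 0.15, and for Gclc 1 WT library lay far from the others. Gclc, the catalytic subunit of glutamate-cysteine ligase, was at 47.8, 45.9 and 48.2 FPKM in bKO replicates 1, 2 and 3, against 26.9, 49.2 and 59.1 FPKM in WT replicates 1, 2 and 3. The bKO libraries lay close together inside the wide WT range. The log2 difference of 0.11 (SE 0.25, limma adjusted p = 0.859) became -0.20 without WT replicate 1. Gclm, the modifier subunit of the same ligase, was at 63.2, 71.3 and 65.0 FPKM in bKO and 62.2, 62.1 and 65.9 FPKM in WT, and did not share the low value of WT replicate 1. Gsr, glutathione reductase, was at 34.8, 36.8 and 35.5 FPKM in bKO and 29.8, 33.9 and 34.9 FPKM in WT. Gss, glutathione synthetase, averaged 19.4 ± 2.28 FPKM in bKO and 16.5 ± 1.69 FPKM in WT (SD, n = 3 each). The groups touched or overlapped for each of these on the normalized scale, and the smallest limma adjusted p among the 4 genes was 0.540.

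Hmox1, the inducible heme oxygenase, was the enzyme with the second smallest p. It was at 131, 120.2 and 129 FPKM in bKO replicates 1, 2 and 3, against 110.2, 103 and 99.3 FPKM in WT replicates 1, 2 and 3. Every bKO library lay above every WT library (log2 difference 0.26, SE 0.08, 95% interval 0.07 to 0.44, limma adjusted p = 0.222). Hmox1 is also expressed in macrophages. The summed level of 9 macrophage and leukocyte markers, none at 0 in any library, was 102, 102 and 103 FPKM in bKO and 169, 138 and 113 FPKM in WT, and that of the endothelial markers was higher in bKO. The part of either cell type in the Hmox1 values was not tested. Nqo1, a quinone reductase, averaged 17.7 ± 3.88 FPKM in bKO and 12.9 ± 3.61 FPKM in WT (SD, n = 3 each), with overlap of the groups.

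The 20 glutathione transferases did not lean one way as a family. Log2 differences were positive for 11 and negative for 9, with a median of 0.07, and the classes differed in sign. All 4 alpha, both pi and all 3 theta genes had positive differences, and 6 of 7 mu genes had negative ones. Of these mu genes, Gstm1 and Gstm2 turned positive without quantile normalization (0.016 and 0.037). Gstp1, the pi class transferase and the most abundant of the 44 enzymes, was at 459, 497 and 456 FPKM in bKO replicates 1, 2 and 3, against 265, 426 and 445 FPKM in WT replicates 1, 2 and 3. All bKO libraries were higher, but WT replicate 1 stood far below the other WT libraries, and the log2 difference of 0.34 (limma adjusted p = 0.409) was 0.16 without it. Gstp2, its neighbour, was at 86.7, 89.8 and 87.9 FPKM in bKO and 56.4, 83.2 and 89.6 FPKM in WT, with WT replicate 1 again the low library and a log2 difference of 0.20 that was 0.025 without it. The pair cannot be separated cleanly, since 62.3% of the 50-base stretches of Gstp1 also occur in Gstp2.

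Among the alpha transferases, Gsta3 had the largest difference of the 44 enzymes on the log2(FPKM + 1) scale, where low genes are held down. With a pseudocount of 0.1, Gpx2-ps1 (0.89), Gsta1 (0.63) and Gstt3 (0.62) exceeded Gsta3 (0.52). It was at 33.9, 22.4 and 36.0 FPKM in bKO and 16.0, 21.2 and 24.0 FPKM in WT, and bKO replicate 2 lay inside the WT range (log2 difference 0.50, SE 0.21, limma adjusted p = 0.346). Gsta4, which conjugates the lipid aldehyde hydroxynonenal, was at 28.2, 19.8 and 28.7 FPKM in bKO and 27.6, 14.5 and 18.7 FPKM in WT. WT replicate 1 was high for Gsta4 and low for Gsta3. Gsta1 was the least stable of the 44, at 7.54, 11.5 and 6.67 FPKM in bKO and 1.35, 9.98 and 9.75 FPKM in WT, and its log2 difference of 0.46 became -0.29 without WT replicate 1. Gsta1 shares 44.6% of its 50-base stretches with Gsta2, which averaged 1.55 ± 0.102 FPKM in bKO and 1.05 ± 0.314 FPKM in WT (SD, n = 3 each). The Gsta2 groups did not overlap as FPKM but did after normalization.

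The mu class held most of the lower values. Gstm1, the most abundant mu transferase, was at 76.4, 105 and 77.7 FPKM in bKO replicates 1, 2 and 3, against 99.4, 88.2 and 68.8 FPKM in WT replicates 1, 2 and 3. Gstm2 was at 42.5, 39.7 and 42.3 FPKM in bKO and 52.3, 40.4 and 31.2 FPKM in WT. The groups overlapped for both, the WT range of Gstm2 covering all bKO values, and both log2 differences were -0.02. Gstm5 was at 28.0, 27.6 and 27.3 FPKM in bKO and 30.0, 29.5 and 28.4 FPKM in WT. Gstm4 was at 10.7, 10.6 and 9.73 FPKM in bKO and 13.5, 11.9 and 10.8 FPKM in WT. Every bKO library lay below every WT library for these, with log2 differences of -0.14 and -0.27 and limma adjusted p of 0.308 and 0.263. Gstm7 was at 1.60, 1.33 and 1.21 FPKM in bKO and 1.76, 1.79 and 1.38 FPKM in WT (log2 difference -0.23, limma adjusted p = 0.327). Gstm3 and Gstm6, both under 1 FPKM as means over all libraries, rested on about 6 to 51 fragments in bKO libraries and 8 to 34 in WT libraries. Gstm1, Gstm2, Gstm3 and Gstm6 share between 1.08% and 15.8% of their 50-base stretches with another of the 44 genes.

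The omega genes, neighbours in function with opposite signs, and the remaining classes completed the family. Gsto1, which reduces dehydroascorbate and mixed disulfides, was at 66.2, 59.4 and 67.1 FPKM in bKO replicates 1, 2 and 3, against 46.4, 50.6 and 62.2 FPKM in WT replicates 1, 2 and 3. Only WT replicate 3 reached into the bKO range (log2 difference 0.25, SE 0.10, limma adjusted p = 0.324). Gsto2 was at 2.26, 2.41 and 1.63 FPKM in bKO and 2.78, 2.68 and 2.31 FPKM in WT, overlapping as FPKM but not after normalization (log2 difference -0.32, limma adjusted p = 0.311). Gstt1 was at 43.3, 53.6 and 39.3 FPKM in bKO and 48.5, 41.1 and 39.6 FPKM in WT. Gstz1, which isomerizes maleylacetoacetate in tyrosine breakdown, was at 41.9, 47.0 and 42.9 FPKM in bKO and 55.0, 43.7 and 38.3 FPKM in WT. Neither separated the groups. Gstt3 had means of 4.15 FPKM in bKO and 2.68 FPKM in WT, with overlap (log2 difference 0.45, SE 0.31, limma adjusted p = 0.535), and the difference was 0.11 without WT replicate 1. Gstt2 averaged 11.4 ± 0.667 FPKM in bKO and 9.52 ± 1.24 FPKM in WT, and Gstk1, a transferase of mitochondria and peroxisomes, averaged 5.83 ± 0.254 FPKM in bKO and 6.06 ± 0.988 FPKM in WT (SD, n = 3 each).

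On the log2(FPKM + 1) scale the enzymes differed more between libraries of 1 group than genes in general. This scale holds down the range of low genes, and the sets were not matched for level. A mean of at least 1 FPKM was reached by 41 of the 44 enzymes and by 12655 of the 15962 genes. The median range of the 3 bKO libraries was 0.21 on the log2 scale for the 44 enzymes and 0.15 for all genes, and that of the 3 WT libraries was 0.34 and 0.20. WT replicate 1 was the lowest library for 15 of the 44 (34.1%, against 24.3% of all genes) and the highest for 12 (27.3%, against 26.6%). The low set included Gclc, Gstp1, Gstp2, Gsta1, Gsta3, Gstt3, Srxn1, Cat and Gpx1, on the normalized scale, in the library whose acinar marker sum was 1412 FPKM beside at least 12159 in every other library. The high set included Gstm1, Gstm2, Gstm4, Gstz1 and Prdx1. Of the genes whose promoter stretches are shown, Gstp1, Gstp2 and Srxn1 were lowest in WT replicate 1 and Prdx1 was highest there on the normalized scale. For 8 enzymes (18.2%, against 8.08% of all genes) bKO replicates 1 and 3 and WT replicate 1 were the 3 highest libraries, the same 3 that were highest in the sum of stellate cell and fibroblast markers. They were Sod3, Gpx7, Gpx8, Prdx1, Prdx6, Nqo1, Gsta4 and Gstm2. WT replicate 1 was the highest WT library for each of these genes, so a larger difference without it follows from how they were picked. Without WT replicate 1 the log2 difference of those with a difference of at least 0.20 was 0.44 for Sod3, 0.49 for Gpx7, 0.63 for Gpx8, 0.57 for Nqo1 and 0.52 for Gsta4. The part of acinar or stellate cells in these values was not tested. Without WT replicate 1, limma still called 0 of the 44, with 11 at an unadjusted p below 0.05, while 15 did not overlap, beside 34.8% of all genes. The share of all genes at that p limit was not taken there.

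**Figure D4:**
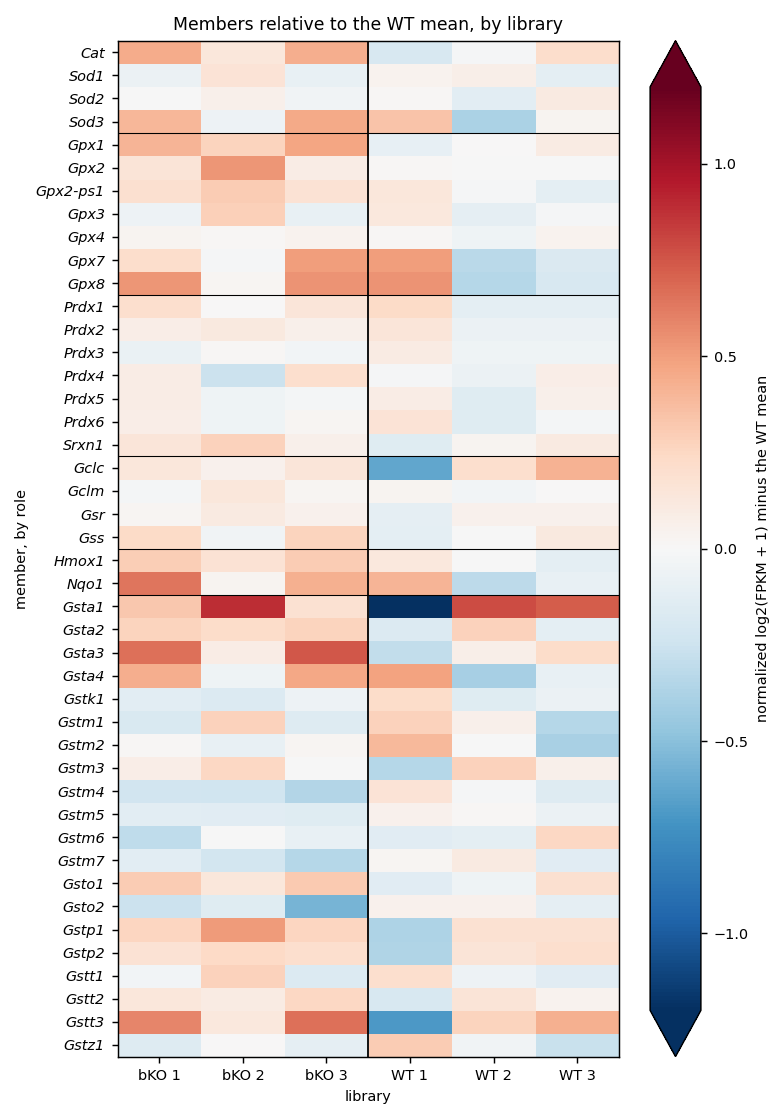
Normalized log2(FPKM + 1) of each enzyme minus the mean of the 3 WT libraries, in bKO replicates 1 to 3 (left) and WT replicates 1 to 3 (right), grouped by role, with red above and blue below the WT mean. WT replicate 1 shows the deepest blue for Gsta1, Gstt3 and Gclc and red for Gpx7, Gpx8 and Gsta4, and bKO replicates 1 and 3 resemble each other.

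The genes around these enzymes were counted by list in the same fit, and limma called 0 of 91 tested genes, with an unadjusted p below 0.05 for 7 higher and 8 lower genes, near the shares over all genes (5.05% higher and 9.17% lower). In the thioredoxin and glutaredoxin system, 9 of 16 had positive differences, with a median of 0.03. Txnip, which binds and inhibits thioredoxin and responds to glucose, was at 73.1, 84.6 and 72.1 FPKM in bKO replicates 1, 2 and 3, against 34.9, 52.1 and 46.7 FPKM in WT replicates 1, 2 and 3. The groups stood well apart (log2 difference 0.75, SE 0.14, limma adjusted p = 0.101). Txnrd1, the thioredoxin reductase of the cytosol, was at 139, 165 and 140.1 FPKM in bKO and 122, 123 and 126 FPKM in WT, also without overlap (log2 difference 0.23, limma adjusted p = 0.268). Msrb3, a methionine sulfoxide reductase, had a log2 difference of 0.28 (limma adjusted p = 0.329).

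Of 16 genes of NADPH supply, 11 had positive differences, with a median of 0.07. Mthfd2, a mitochondrial enzyme of folate metabolism, was at 47.0, 48.3 and 47.1 FPKM in bKO, below all WT libraries at 52.0, 66.2 and 57.2 FPKM (log2 difference -0.31, limma adjusted p = 0.175). Pgd, of the pentose phosphate pathway, had a difference of 0.25 (limma adjusted p = 0.448). Mthfd1, another enzyme of folate metabolism, had one of -0.15 (limma adjusted p = 0.450). Nnt, the mitochondrial transhydrogenase, of which C57BL/6J mice carry a defective allele, was at 5.93, 5.70 and 5.49 FPKM in bKO and 6.04, 6.28 and 5.42 FPKM in WT. The labels give C57BL/6 without a substrain.

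In the list of glutathione turnover and cysteine supply, 14 of 23 tested genes had positive differences, with a median of 0.11. Cbs, which starts the conversion of homocysteine to cysteine, had the smallest p of all the lists. It was at 21.4, 21.6 and 21.6 FPKM in bKO replicates 1, 2 and 3, against 27.7, 34.6 and 33.8 FPKM in WT replicates 1, 2 and 3. All bKO libraries were lower (log2 difference -0.60, SE 0.08, limma adjusted p = 0.0640), and without WT replicate 1 the gene passed as lower (log2 difference -0.69, limma adjusted p = 0.0289, against 0.0613 to 0.389 under the other alternatives). Dpep1, a dipeptidase that cleaves a product of glutathione breakdown, averaged 1.83 ± 0.292 FPKM in bKO and 0.905 ± 0.163 FPKM in WT (limma adjusted p = 0.0946). Mgst3, a microsomal transferase, averaged 27.4 ± 1.92 FPKM in bKO and 20.9 ± 2.66 FPKM in WT (limma adjusted p = 0.221; SD, n = 3 each for both genes).

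On the normalized scale, 4 of 13 regulators of the pathway were lower in bKO without overlap (Keap1, Rbx1, Nfe2l1 and Park7) and 1 was higher without overlap (Bach2), where 12.6% and 7.1% of all genes were. Bach2 was very low, at 0.273, 0.256 and 0.289 FPKM in bKO and 0.166, 0.200 and 0.196 FPKM in WT (log2 difference 0.07, limma adjusted p = 0.485). Park7, Bach2 and Nfe2l3 were singled out after their values were seen. Nfe2l2, which encodes Nrf2, was at 55.2, 44.3 and 55.9 FPKM in bKO replicates 1, 2 and 3, against 39.2, 43.1 and 47.2 FPKM in WT replicates 1, 2 and 3 (log2 difference 0.22, limma adjusted p = 0.408). Keap1, which holds Nrf2 for degradation, was at 26.7, 28.6 and 26.5 FPKM in bKO and 28.0, 28.9 and 28.9 FPKM in WT (log2 difference -0.12, limma adjusted p = 0.365). Rbx1 and Nfe2l1 differed by -0.16 and -0.15 (log2; limma adjusted p of 0.309 and 0.315), and the median of the 13 regulators was -0.02. The largest difference was that of Nfe2l3, a relative of Nrf2, at 7.64, 3.84 and 7.33 FPKM in bKO and 4.20, 3.99 and 4.89 FPKM in WT, with overlap (log2 difference 0.33, limma adjusted p = 0.529). Of 23 further Nrf2 targets, 12 had positive differences, with a median of 0.04. Osgin1, an oxidative stress-induced growth inhibitor, was at 15.8, 19.3 and 15.5 FPKM in bKO and 12.8, 11.2 and 12.1 FPKM in WT, without overlap (log2 difference 0.37, limma adjusted p = 0.177). Akr1c13, an aldo-keto reductase, had a difference of -0.27 (limma adjusted p = 0.327), and Blvrb, a biliverdin reductase, one of 0.26 (limma adjusted p = 0.384).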

How the data were processed

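Islet RNA from 3 bKO and 3 WT libraries was sequenced. Per the labels and the series design text, mapping of trimmed reads and Cufflinks assembly were done by an outside company, and the authors deposited 1 FPKM value per gene and library. Reads were mapped to mm9 (submitters' processing notes); the versions of these tools are not given here. The values are linear, although the design text describes log transformation and quantile normalization. The table named 16547 genes, and 2 lines without a gene were left out. A filter removed 585 genes listed at 0 in at least 1 library. Here log2(FPKM + 1) was quantile normalized, and bKO minus WT was tested over 15962 genes with limma 3.58.1 in R 4.3.3 (eBayes with trend, two-sided), Benjamini-Hochberg adjusted, with a threshold of 0.05. A log2 difference on this scale understates the change of low genes. The steps were tested on simulated data with planted changes larger than the log2 difference of any enzyme in the main fit. The simulation therefore does not show whether changes as small as those of the enzymes would be called.

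Members and lists were chosen with earlier results of these data known. Values in every library are given for members with a mean of at least 20 FPKM, or among the 8 with the smallest p at a mean of at least 1. In each other list the 3 genes with the smallest p at that mean are named, with Txnip, Nnt, Nfe2l2 and Keap1. Gsta1 falls outside this rule and was given in full after its values were seen. Depth was estimated from steps between low FPKM values, of which 60.9% to 68.6% lay within 0.1 of a whole fragment, too few for a count test. Multiples of a depth also give whole fragments, so the lowest depth with a score near the highest was taken. For bKO replicate 3 and WT replicates 1 and 3 another depth scored higher, so depths and fragment numbers are approximate. Shared 50-base stretches were counted in GENCODE transcripts of GRCm38. Alternatives were another pseudocount, scaling, filter and variance trend, a replicate block, each library left out, and bKO replicates 1 and 3 averaged as 1 sample. Python 3.11.15 and pandas 2.3.3 were used for tables.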

Additional observations from a re-analysis of the deposited data

How the results depend on the processing

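Under all 14 alternatives limma called 0 of the 44 enzymes, and 3 to 12 had an unadjusted p below 0.05. The share of all genes at that limit was not taken under the alternatives, so these counts have no background beside them. The adjusted p of Gpx1 lay between 0.0850 (without bKO replicate 2, the lowest of any enzyme) and 0.463. The median log2 difference of the enzymes was 0.15 without quantile normalization and 0.077 to 0.11 with a library left out. The number of enzymes without overlap was 9 to 16 with a library left out, beside 23.3% to 44.5% of all genes. It was 16 without bKO replicate 2, where the share of all genes was 44.5%. Genes called among all tested numbered 0 with the replicate block, 0 with bKO replicates 1 and 3 averaged, and 0 to 50 with a library left out (50 without WT replicate 1, 9 or fewer without any other), beside 31 with all 6 libraries, and the other lists gave 0 to 1, Cbs without WT replicate 1. The correlation of deviations from the group means was -0.20, 0.07 and 0.30 for libraries with the same number 1, 2 and 3. It was 0.31 for bKO replicate 1 with WT replicate 3, the highest of all pairs. With 3 libraries per group, these values cannot decide whether libraries with the same number were paired. With the replicate block the log2 differences stayed as they were and 12 enzymes had an unadjusted p below 0.05.

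The sign held under every alternative for 28 of 44 enzymes, Gpx1, Gpx2, Hmox1, Cat, Gsta3 and Gstp1 among them. It turned without quantile normalization for Gstm1 (0.016), Gstm2 (0.037) and Prdx3 (0.016). With median of ratios scaling it turned for Gpx3 (-0.0073), Gpx4 (-0.014), Prdx4 (-0.0051), Prdx5 (-0.020), Prdx6 (-0.0089) and Sod1 (-0.043). With bKO replicates 1 and 3 averaged it turned for Gstm1 (0.049), Prdx4 (-0.056) and Prdx5 (-0.0025). The cause was not tested. With a library left out the range was -0.20 to 0.32 for Gclc, -0.0031 to 0.076 for Gclm, -0.074 to 0.11 for Gpx3, -0.00075 to 0.044 for Gpx4, -0.29 to 0.85 for Gsta1, -0.19 to 0.12 for Gstm1, -0.21 to 0.18 for Gstm2, -0.066 to 0.25 for Gstm3, -0.10 to 0.12 for Gstt1 and -0.22 to 0.066 for Gstz1. It was -0.056 to 0.017 for Prdx3, -0.083 to 0.15 for Prdx4, -0.070 to 0.049 for Prdx5, -0.052 to 0.10 for Prdx6, -0.077 to 0.042 for Sod1 and -0.058 to 0.055 for Sod2. At a mean of at least 1 FPKM, 41 of the 44 enzymes were tested, and the other 3 rested on at most 51 estimated fragments in a library.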

Other observations

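Gpx1 to Gpx4 are selenoproteins, and the other selenoprotein genes of the table were read beside them, a list drawn up after values had been seen and given without a test. With Sephs2, which makes the selenium donor, 22 such genes were tested, 15 with a positive log2 difference and 0 called by limma, with an unadjusted p below 0.05 for 3 higher and 2 lower genes, where 47% of all genes were positive and 5.05% and 9.17% were higher and lower at that limit. The bKO libraries lay above all WT libraries for Gpx1, Gpx2, Txnrd1 and Sepw1, and below all WT libraries for Selk, Vimp and Sep15, where 7.1% and 12.6% of all genes were. Selk was at 145, 163 and 143 FPKM in bKO replicates 1, 2 and 3, against 167, 195 and 187 FPKM in WT replicates 1, 2 and 3 (log2 difference -0.30, limma adjusted p = 0.156). Vimp, which encodes selenoprotein S, was at 84.1, 93.8 and 83.2 FPKM in bKO and 101, 105 and 99.3 FPKM in WT (log2 difference -0.26, limma adjusted p = 0.187). Sep15 averaged 214 ± 2.26 FPKM in bKO and 227 ± 5.19 FPKM in WT (SD, n = 3 each), with a limma adjusted p of 0.491. Sepp1, the secreted selenium carrier, overlapped between the groups at 242 ± 10.2 FPKM in bKO and 231 ± 18.2 FPKM in WT.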
